A study of Mus musculus with 48 samples.

Results

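The 9 genes described here were listed together as genes for the clearance of foreign compounds, though not all of their substrates are foreign. They are the receptors Ahr and Nr1i2, the enzymes Cyp1a1, Cyp3a11 and Ugt1a1, the export pumps Abcg2, Abcb1a and Abcc2, and the carrier Slc22a22. DNA methylation around them was read from the captured regions of the deposited peak list that overlap a gene of the list or lie within 5000 bp of it on mm10. This gave 29 of the 95882 regions, and 8 of the 9 genes had at least 1. Cyp3a11 had none, so no level can be given for it. The genes were listed with earlier results of these data known, and Ugt1a1, Abcg2 and Slc22a22 are the ones with regions past the threshold between colon and another section. Differences between sections are therefore given as a description, and nothing is read from the counts of regions past the threshold there.

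The libraries came from 7 GermFree mice and 5 ConvR mice, the second described by the submitters as conventionalized. In usual wording that means mice born germ-free and then given a gut microbiota. The label ConvR alone does not state how these mice were raised. Each mouse gave 1 library from each of 4 sections, duodenum, jejunum, ileum and colon, so the 48 libraries stand for 12 animals. Strain, sex, age, the time after any colonisation and the layers of the gut wall that were taken are not stated in the labels. Methylated DNA was bound by a methyl-CpG-binding domain (MBD) and the captured fragments were sequenced, so a level is the amount of captured DNA over a region. It is written as CPM, a region's count scaled to the size of its library, or as CPM per kb of region where regions of different width are compared. A level reflects the methylation of a region and also its copy number in the genome. In bulk intestine, a change of methylation within cells and a change in the share of cell types cannot be told apart. Gene expression was not measured, so the tissue labels cannot be checked against expressed markers.

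Clearance of foreign compounds in the gut runs through a chain of steps. Ahr and Nr1i2 (the pregnane X receptor) are ligand-activated transcription factors that respond to dietary, microbial and drug-like compounds and switch on target genes. Cytochrome P450 enzymes such as Cyp1a1 and Cyp3a11 oxidise those compounds, Ugt1a1 attaches glucuronic acid to bilirubin and many drugs, and pumps of the ATP-binding cassette family send the products out of the cell, often back into the gut lumen. Methylation of CpG sites near a start site is commonly linked to low activity of that start site, whereas within gene bodies the link is weaker and can have the opposite sign.

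The start sites of the 2 genes with the broadest captured regions, and of Cyp1a1 for contrast, show how differently CpG sites are spread among them. The 250 bases before each start site are written from the 5′ end, with the C and G of each CpG in capitals. Sequences and positions are from RefSeq on GRCm38.p6, the assembly of mm10.
Ugt1a1, chr1:88211709-88211958, plus strand: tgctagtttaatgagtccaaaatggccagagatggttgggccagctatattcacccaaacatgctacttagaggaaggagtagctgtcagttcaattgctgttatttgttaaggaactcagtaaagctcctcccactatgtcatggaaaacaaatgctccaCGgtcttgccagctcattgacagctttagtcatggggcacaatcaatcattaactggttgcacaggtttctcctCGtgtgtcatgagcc
Abcg2 start site 1, chr6:58584283-58584532, plus strand: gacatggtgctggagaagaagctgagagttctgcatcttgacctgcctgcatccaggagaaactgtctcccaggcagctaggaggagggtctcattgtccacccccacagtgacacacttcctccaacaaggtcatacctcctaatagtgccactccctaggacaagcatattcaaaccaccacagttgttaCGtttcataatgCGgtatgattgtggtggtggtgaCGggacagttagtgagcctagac
Abcg2 start site 2, chr6:58596422-58596671, plus strand: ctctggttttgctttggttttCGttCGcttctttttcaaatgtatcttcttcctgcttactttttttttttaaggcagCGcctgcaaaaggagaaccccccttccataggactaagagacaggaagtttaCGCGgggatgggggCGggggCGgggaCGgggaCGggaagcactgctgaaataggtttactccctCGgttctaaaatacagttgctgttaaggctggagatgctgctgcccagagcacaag
Abcg2 start site 3, chr6:58640296-58640545, plus strand: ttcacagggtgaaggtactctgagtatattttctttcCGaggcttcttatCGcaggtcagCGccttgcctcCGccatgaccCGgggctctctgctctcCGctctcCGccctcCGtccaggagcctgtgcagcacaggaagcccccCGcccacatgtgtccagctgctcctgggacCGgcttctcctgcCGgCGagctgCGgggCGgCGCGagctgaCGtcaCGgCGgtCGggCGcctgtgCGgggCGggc
Cyp1a1, chr9:57697363-57697612, plus strand: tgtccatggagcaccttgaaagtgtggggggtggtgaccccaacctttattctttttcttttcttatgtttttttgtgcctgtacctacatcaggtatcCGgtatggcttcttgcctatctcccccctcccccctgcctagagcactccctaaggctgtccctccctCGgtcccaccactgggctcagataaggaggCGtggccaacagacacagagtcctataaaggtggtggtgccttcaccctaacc
The Ugt1a1 window held 2 CpG and lay wholly within a captured region. Abcg2 start sites 1 and 2 had 3 and 10 CpG, and both windows lay wholly in captured regions as well. Start site 3 of Abcg2, with 23 CpG and 67.6% G and C, lay in none. The Cyp1a1 window had 3 CpG and 1 copy of GCGTG, the core of the site that Ahr binds with its partner, searched on both strands, and no captured region touched it. Among 32851 windows of the same length the median was 6 CpG, 28.2% held GCGTG on either strand, and 8.3% touched a captured region. A match of these letters describes the sequence and shows no binding. The table of windows matched 8 of the 9 genes, 11 windows in all. The single windows of Abcb1a, Abcc2, Cyp3a11 and Nr1i2 and both windows of Slc22a22 had 0 to 2 CpG and touched no captured region.

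**Figure D1:**
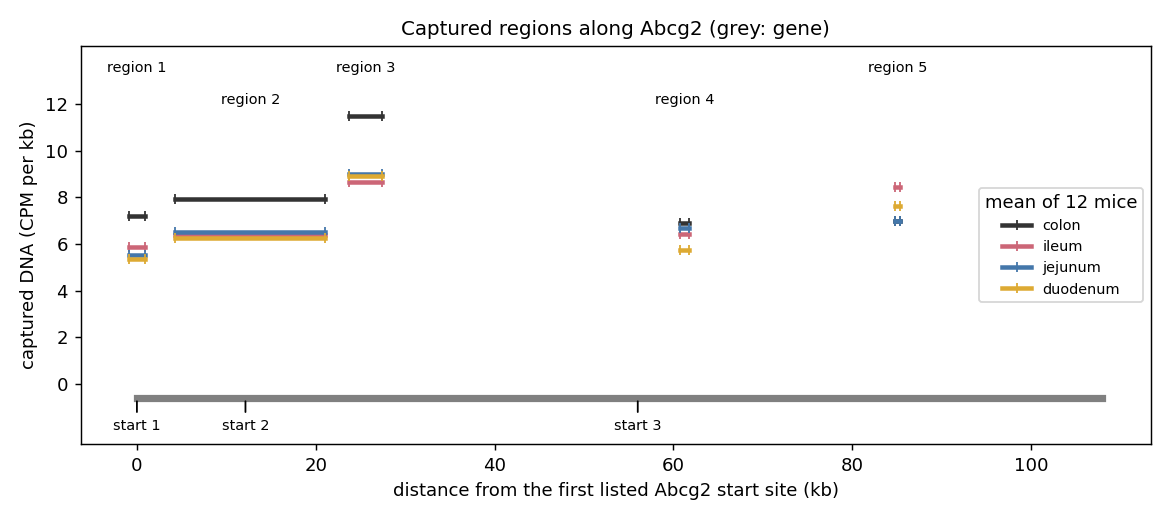
Captured regions along Abcg2, with distance from the first start site on the x axis and the mean level over 12 mice in each section, in CPM per kb, on the y axis. Regions 1 and 2 cover the first and second start sites, and the CpG-rich start site 3 lies in the gap between regions 3 and 4.

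Library totals ran from 1007560 to 3033782 counts with a median of 2122529, and the median region held 7 to 23 counts, so narrow regions were measured with few counts. Over the 48 libraries, the median count of a region of these genes lay between 7 and 438.5. Over the mean of 12 mice, Ugt1a1 region 1 had the highest level per kb of the 29, at 12.2 ± 1.35 CPM per kb (SD, n = 12), and Abcc2 region 3 the lowest, at 3.95 ± 0.383. The median over all 95882 regions was 6.23 CPM per kb. The order below Ugt1a1 was close. Abcg2 region 3 (9.41 ± 1.12) and Nr1i2 region 2 (9.28 ± 1.43) differed by less than their SDs, and so did most neighbours further down. Regions are numbered along the direction of transcription, except for Ahr, where they follow the chromosome.

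The question put by the 2 mouse models was whether captured DNA at these genes differed between GermFree and ConvR mice. No region of the 9 genes passed the test in any section or in the sums over the 4 sections of a mouse. In the sums, 0 of 29 regions had an adjusted p under 0.05 (edgeR quasi-likelihood test with Benjamini-Hochberg adjustment over all 95882 regions), where 0.475% of all regions did. In the single sections 0 of 22 tested regions passed in the colon, 0 of 27 in the ileum, 0 of 24 in the jejunum and 0 of 25 in the duodenum, against 0.542%, 0.365%, 0.343% and 0.463% of all regions tested with edgeR. An unadjusted p under 0.05 was found by edgeR at 4 of the 29 in the sums, beside 6.63% of all regions, and at 2, 0, 2 and 3 in colon, ileum, jejunum and duodenum, beside 7.44%, 5.12%, 5.36% and 6.99% of all regions tested there. DESeq2 also called 0 in each of these comparisons. The median log2 difference of the 29 regions in the sums was 0.06, against -0.001 over all regions. A missed threshold does not show that the levels were the same, and the intervals below say how large a difference could have gone unseen.

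Ugt1a1, the enzyme that conjugates bilirubin, had 1 region. It runs 17182 bp on chromosome 1 (88211598 to 88228779), holds the Ugt1a1 start site, and was wider than 99.9% of all regions and higher per kb than 99.5%. It overlaps 10 genes, namely Mroh2a and 9 genes of the Ugt1a family, whose members share their last exons with Ugt1a1, so its level cannot be given to Ugt1a1 alone. In colon the 7 GermFree mice ranged from 240 to 287 CPM with a median of 271, and the 5 ConvR mice had 253, 255, 157, 284 and 222 CPM. The lowest colon was that of ConvR mouse 3, and the remaining colons of both models overlapped. In ileum the GermFree mice ranged from 137 to 230 CPM with a median of 209, and the ConvR mice had 228, 179, 161, 198 and 185 CPM. In jejunum the GermFree mice ranged from 174 to 248 CPM with a median of 196, and the ConvR mice had 200, 235, 222, 203 and 175 CPM. In both of these sections the ranges overlapped, with 1 GermFree mouse above and 1 below all ConvR mice. In duodenum the GermFree mice ranged from 163 to 265 CPM with a median of 232, and the ConvR mice had 208, 203, 117, 176 and 177 CPM. Of the 7 GermFree duodenums, 4 lay above all 5 ConvR duodenums.

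Over the summed sections Ugt1a1 region 1 averaged 218 ± 21.5 CPM in GermFree mice (SD, n = 7) and 200 ± 23.4 CPM in ConvR mice (SD, n = 5). The log2 difference was 0.12 (SE 0.08, 95% interval -0.04 to 0.29; edgeR adjusted p = 0.84), and 0.06 without ConvR mouse 3. It was 0.17 in colon (interval -0.06 to 0.40), 0.07 in ileum (-0.19 to 0.32), -0.05 in jejunum (-0.24 to 0.14) and 0.30 in duodenum (0.04 to 0.55). The smallest edgeR adjusted p of these 4 sections was 0.64, in the duodenum, where the difference was 0.19 without ConvR mouse 3. A joint edgeR test of whether the model difference varied between sections gave an adjusted p of 0.99 for this region, and 0.86 with the mouse as a block.

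Across sections the Ugt1a1 region was highest in colon. The mean over 12 mice was 251 ± 35.6 CPM in colon (SD), against 195 ± 26.7 in ileum, 203 ± 23.1 in jejunum and 200 ± 40.1 in duodenum. As log2 differences, averaged over the models, colon was higher by 0.36 than ileum (SE 0.09), by 0.28 than jejunum (SE 0.09) and by 0.34 than duodenum (SE 0.09). Compared within the same animal, colon was above duodenum in 12 of 12 mice, above jejunum in 11 and above ileum in 11. The exception against jejunum was below it by 0.49 on the log2 scale. The 3 sections of the small intestine overlapped, and their means lay within 1 SD of each other. Of the 12 colons, 10 were above every ileum.

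**Figure D2:**
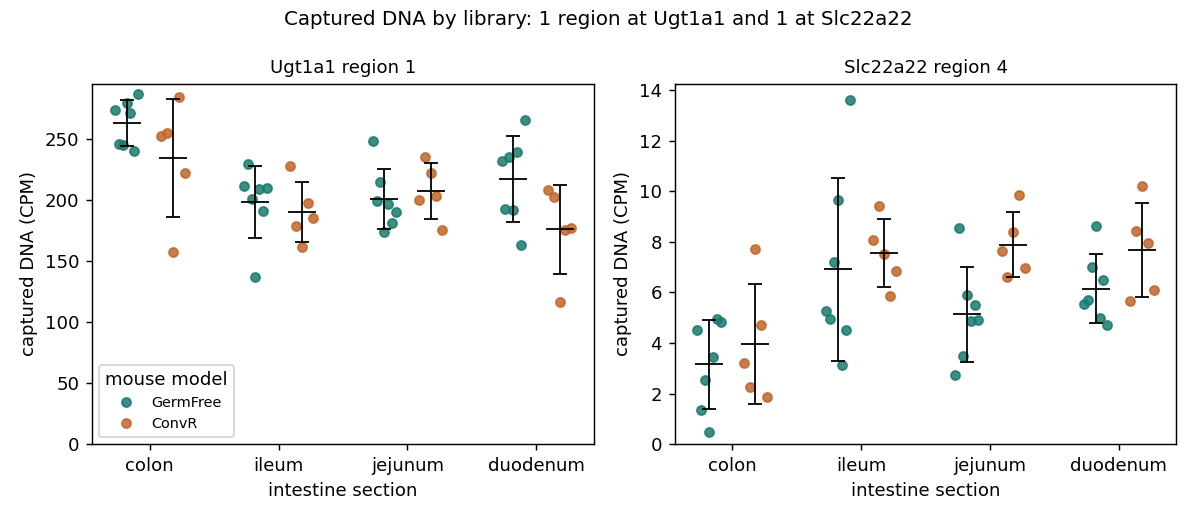
Levels of Ugt1a1 region 1 and Slc22a22 region 4 in every library, in CPM, by section, with GermFree mice left of ConvR mice and bars for mean and SD. Ugt1a1 averaged 263 CPM in GermFree colon and 234 CPM in ConvR colon and less in every other group, while Slc22a22 averaged 3.17 and 3.97 CPM there and more in every other group.

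Abcg2, the breast cancer resistance protein that pumps urate, drugs and drug conjugates out of cells, had 5 regions along chromosome 6. Region 1 (58583677 to 58585450) covers the first start site and also overlaps the predicted gene Gm45943. Region 2 (58588839 to 58605588) spans 16750 bp and covers the second, and region 3 (58608234 to 58611960) lies 11562 to 15288 bp after it. Regions 4 (58645275 to 58646236) and 5 (58669266 to 58669895) lie in the gene body past start site 3. Regions 2 and 3 held the most counts of the 5, and region 3 had a higher level per kb than 98.8% of all regions.

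In colon, Abcg2 region 2 ranged from 122 to 157 CPM with a median of 144 in the 7 GermFree mice, and stood at 129, 138, 96.3, 136 and 126 CPM in the 5 ConvR mice. In ileum it ranged from 71.3 to 132 CPM with a median of 119 in GermFree mice and stood at 125, 115, 62.5, 122 and 86.6 CPM in ConvR mice. The lowest colon was again that of ConvR mouse 3, and the models overlapped in both sections. In jejunum it ranged from 89.9 to 122 CPM with a median of 102 in GermFree mice and stood at 113, 123, 108, 117 and 109 CPM in ConvR mice. In duodenum it ranged from 80.1 to 134 CPM with a median of 126 in GermFree mice and stood at 83.6, 106, 81.1, 90.2 and 98.2 CPM in ConvR mice. The models overlapped in these sections too, with the ConvR mice spread over a narrower range in jejunum.

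Between models, the Abcg2 differences in the sums were positive at regions 1 to 4 and negative at region 5, and none passed. Region 3, at 0.06, turned to -0.02 both without ConvR mouse 3 and without ConvR mice 1 and 3. Region 1 had 13.5, 10.9, 11.5, 10.9, 12.5, 8.58 and 11.2 CPM in the summed sections of the 7 GermFree mice, and 12.2, 9.37, 8.61, 9.07 and 7.92 CPM in the 5 ConvR mice. The ranges overlapped, through 1 high ConvR and 1 low GermFree mouse. Its log2 difference was 0.29 (SE 0.10, 95% interval 0.08 to 0.50; edgeR adjusted p = 0.50), and in duodenum alone it was 0.55 (interval 0.17 to 0.94; edgeR adjusted p = 0.41). Region 5 was the one Abcg2 region whose groups did not overlap in the sums, with 3.88 to 4.86 CPM (median 4.32) in GermFree mice and 5.05, 5.02, 5.08, 5.59 and 5.07 CPM in ConvR mice. Its log2 difference was -0.23 (interval -0.48 to 0.03), which did not pass in edgeR (adjusted p = 0.81), beside 0.475% of all regions that did. How many of all regions had groups apart in the sums was not counted, so nothing is read from this separation. Region 2 differed by 0.10 (interval -0.06 to 0.26), by 0.04 without ConvR mouse 3 and by 0.07 without GermFree mouse 5, and region 4 by 0.28 (0.03 to 0.54; edgeR adjusted p = 0.70).

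At Abcg2 region 3 the model difference had opposite signs in colon and jejunum. In colon its level ranged from 40.2 to 55.5 CPM with a median of 45.3 in GermFree mice and stood at 37.5, 39.0, 23.2, 50.4 and 35.8 CPM in ConvR mice. In jejunum it ranged from 23.8 to 42.3 CPM with a median of 30.2 in GermFree mice and stood at 42.7, 41.3, 38.3, 30.6 and 32.6 CPM in ConvR mice. GermFree mice were thus mostly above ConvR mice in colon and mostly below them in jejunum, with overlap in both. The log2 difference was 0.36 in colon (interval 0.12 to 0.60; edgeR adjusted p = 0.29) and -0.25 in jejunum (-0.48 to -0.03; edgeR adjusted p = 0.89). Without ConvR mouse 4, whose colon was the highest ConvR colon, the colon difference was 0.48 and passed in edgeR (adjusted p = 0.041). Without ConvR mouse 3, whose colon was the lowest, it was 0.23 and did not pass in edgeR (adjusted p = 0.89). The joint edgeR test of variation between sections gave this region an unadjusted p of 0.018 and an adjusted p of 0.99, and 0 of 29 regions and 0% of all regions passed it.

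**Figure D3:**
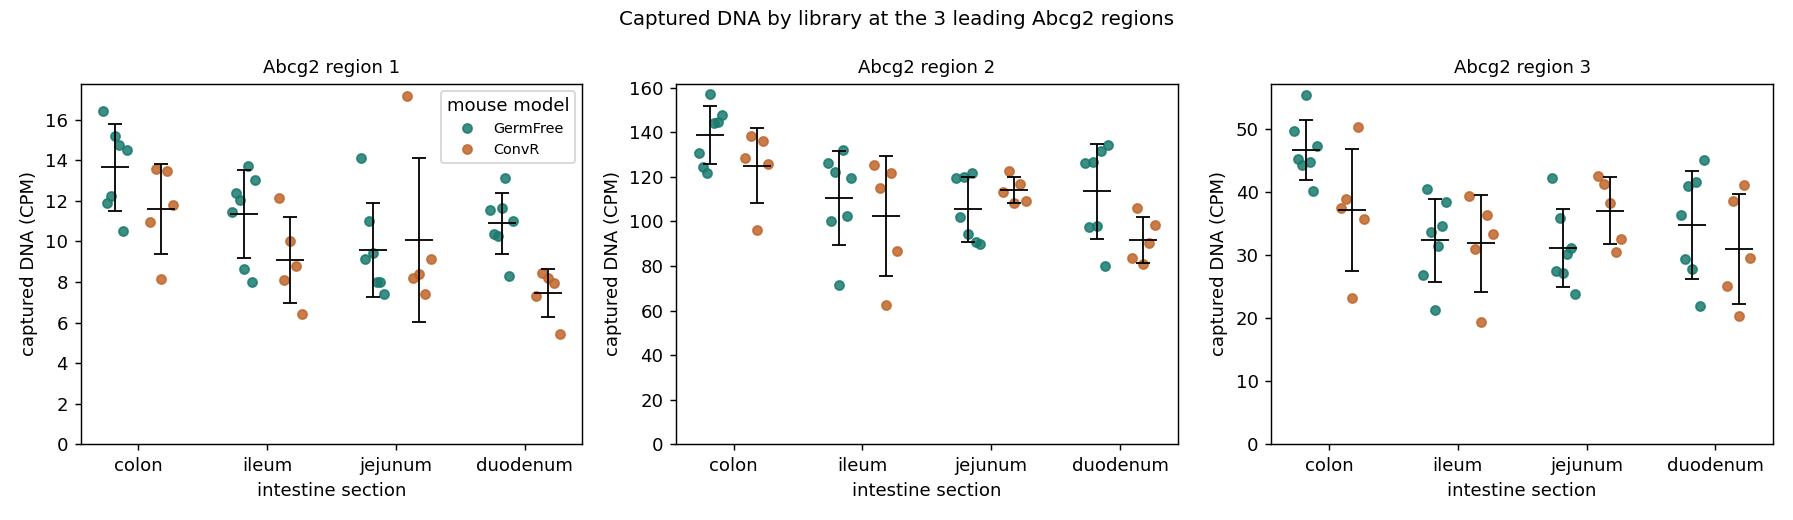
Levels of Abcg2 regions 1, 2 and 3 in every library, in CPM, by section, with GermFree mice left of ConvR mice and bars for mean and SD. All 3 regions have their highest mean in GermFree colon, at 13.7, 139 and 46.7 CPM, and the points of the models overlap in most sections.

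Across sections, Abcg2 regions 1, 2 and 3 were higher in colon. Region 2 averaged 133 ± 15.7 CPM in colon (SD, n = 12), against 107 ± 22.8 in ileum, 109 ± 12.1 in jejunum and 104 ± 20.3 in duodenum. Region 3 averaged 42.8 ± 8.43 CPM in colon, against 32.2 ± 6.74, 33.6 ± 6.38 and 33.2 ± 8.46 in the same sections. Region 1 averaged 12.8 ± 2.32 CPM in colon, against 10.4 ± 2.36, 9.78 ± 2.99 and 9.46 ± 2.21. Against ileum, jejunum and duodenum the log2 differences were 0.31, 0.26 and 0.36 at region 2, 0.39, 0.29 and 0.31 at region 3, and 0.36, 0.39 and 0.50 at region 1. Within the same animal, region 2 was higher in colon in 11 of 12 mice against each of the other sections, and region 3 in 11, 9 and 12. Regions 4 and 5, past the CpG-rich start site 3, had differences from -0.20 to 0.23, with no common direction. In ConvR mice alone, region 3 was lower in colon than in jejunum by 0.03 on the log2 scale, against 0.59 higher in GermFree mice alone.

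Slc22a22, a carrier of organic anions such as prostaglandins in mice, went the other way at 1 of its 4 regions. Region 4 (chromosome 15, 57291008 to 57291742) is 735 bp wide, and in colon its counts were few. The 7 GermFree colons ranged from 0.491 to 4.95 CPM with a median of 3.45, on 1 to 11 counts, and the 5 ConvR colons had 3.23, 2.27, 7.74, 4.71 and 1.88 CPM, on 4 to 18 counts. The 7 GermFree ileums ranged from 3.14 to 13.6 CPM with a median of 5.29, and the 5 ConvR ileums had 8.09, 9.43, 7.50, 5.85 and 6.86 CPM. Most colons lay below most ileums, with overlap.

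Over 12 mice Slc22a22 region 4 averaged 3.50 ± 1.98 CPM in colon (SD), against 7.18 ± 2.82 in ileum, 6.28 ± 2.13 in jejunum and 6.79 ± 1.69 in duodenum. Colon was lower by log2 differences of -1.02 (SE 0.21), -0.82 (SE 0.21) and -0.94 (SE 0.21). It was below ileum in 9 of 12 mice, below jejunum in 11 and below duodenum in 11. Region 3 had fitted log2 differences of colon against ileum, duodenum and jejunum of -0.35, -0.38 and 0.06, and its mean over 12 mice was 4.79 CPM in colon and 4.86 CPM in jejunum. Regions 1 and 2 differed by -0.22 to 0.15.

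Between models, Slc22a22 region 4 had 4.11 to 6.74 CPM with a median of 5.24 in the summed sections of GermFree mice, and 5.99, 7.00, 8.33, 7.20 and 5.58 CPM in ConvR mice. The groups overlapped. The log2 difference was -0.34 (interval -0.61 to -0.08; edgeR adjusted p = 0.59). In jejunum the 7 GermFree mice ranged from 2.73 to 8.55 CPM with a median of 4.92 and the 5 ConvR mice had 7.64, 6.62, 8.39, 9.86 and 6.95 CPM, a log2 difference of -0.61 (interval -1.08 to -0.14; edgeR adjusted p = 0.75). The region held too few counts in colon to be tested there.

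By the edgeR rule used for the models, 4 of the 29 regions passed in colon against ileum, beside 2.19% of all regions, and 4 in colon against duodenum, beside 1.21%. Ugt1a1 region 1, Abcg2 region 2 and Slc22a22 region 4 were among them in both, with Abcg2 region 3 against ileum and Abcg2 region 1 against duodenum. In colon against jejunum 0 of the 29 and 0% of all regions passed, and between the sections of the small intestine 0 of the 29 passed (0.00209% of all regions between ileum and duodenum and 0% otherwise). These contrasts were in view when the genes were chosen, so nothing is read from the counts. With the mouse as a block, since each animal gave all 4 sections, the counts were 5 against ileum, 6 against duodenum and 3 against jejunum, beside 3447, 2336 and 324 of all regions. Abcb1a region 1 was then among them against ileum and duodenum, and Ugt1a1 region 1, Abcg2 region 2 and Slc22a22 region 4 against jejunum. Without the block, single animals moved both the members' count and that of all regions. Against duodenum the count was 0 without ConvR mouse 5, beside 17 of all regions, and 1 without ConvR mouse 4 or GermFree mouse 6, beside 240 and 285. It was 2 without ConvR mouse 1 or GermFree mouse 2, beside 314 and 540. Against ileum it was 1 without ConvR mouse 2 or GermFree mouse 4, beside 729 and 493 of all regions, and 2 without ConvR mouse 4, beside 1168.

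A property of whole libraries was also highest in colon. The 944 autosomal regions with the most captured DNA per kb, leaving out those of the 9 genes, took 4.57 ± 0.397% of counts in colon (SD, n = 12), against 4.05 ± 0.552% in ileum, 4.06 ± 0.355% in jejunum and 4.01 ± 0.426% in duodenum. The mean was 4.25% over GermFree and 4.08% over ConvR libraries. Across the 48 libraries, which share 12 animals, this share had a Pearson correlation of 0.88 with Ugt1a1 region 1, 0.79 with Abcg2 region 2, 0.81 with region 3, 0.70 with region 1, 0.64 with Abcb1a region 1 and -0.44 with Slc22a22 region 4. Section was not taken out of these values. The share and these regions all differ between colon and the other sections, and the genes were listed with that known. Nothing is therefore read from the correlations. By level per kb, Ugt1a1 region 1 and Abcg2 region 3 stood above 99.5% and 98.8% of all regions. Abcg2 regions 1 and 2, Abcb1a region 1 and Slc22a22 region 4 stood above 44.9%, 56.4%, 75.3% and 78.4%. With the share as a covariate, an alternative added after seeing the data, 0 of the 29 regions passed in colon against ileum or duodenum, and 14 and 30 of all regions did. The share was itself highest in colon, so this fit takes out part of any colon difference. It cannot tell the share and the section apart, and what moved the share was not tested. The Ugt1a1 difference was then 0.13 against ileum and 0.10 against duodenum. Abcg2 region 3 was then at -0.0026 against duodenum. Slc22a22 region 4 was at -0.86 against ileum and -0.78 against duodenum and did not pass. Of 727 regions of 10 kb or more outside these genes, 166 (22.8%) passed upward and 7 downward against ileum, and 123 (16.9%) and 4 against duodenum. Against jejunum 0 passed, and the median log2 differences of the 727 from ileum and duodenum were 0.03 and 0.024.

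**Figure D4:**
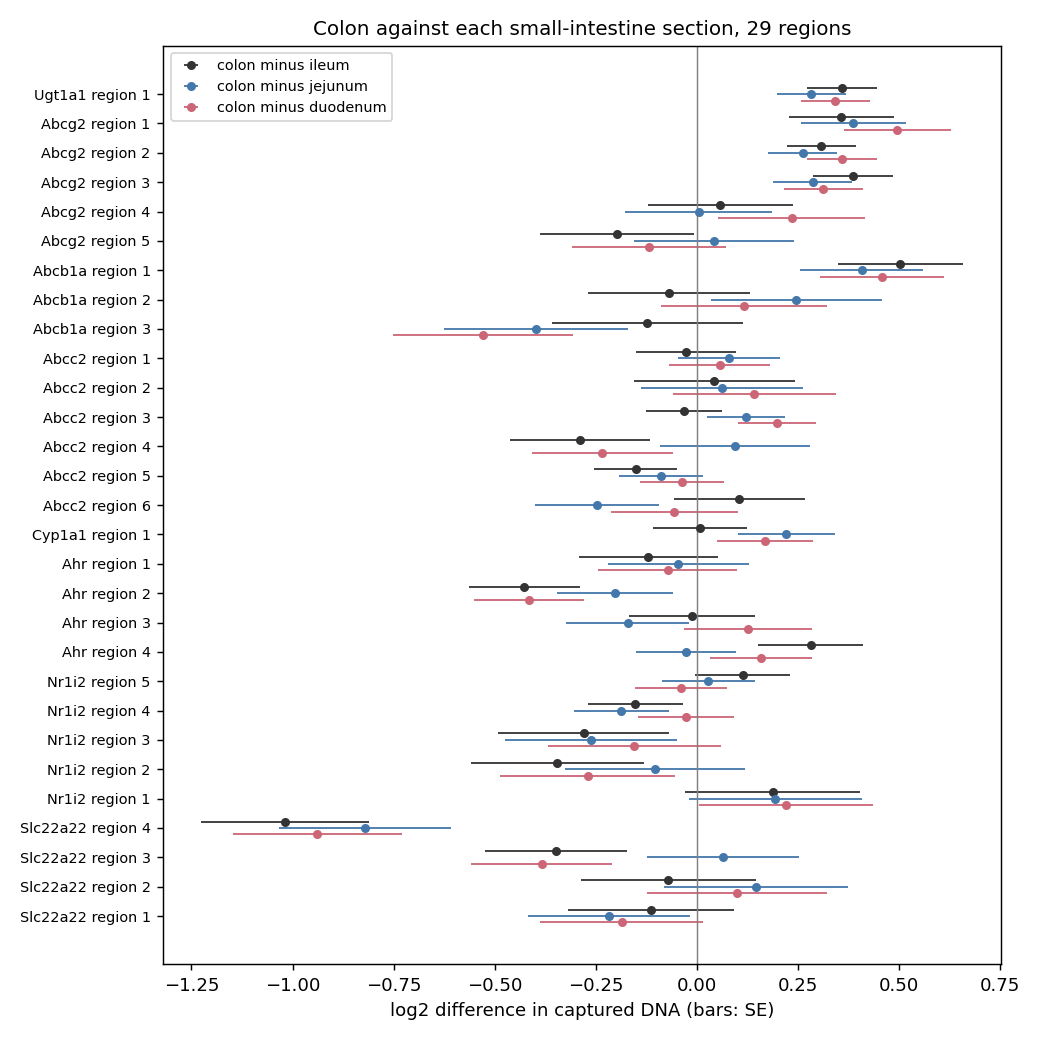
Log2 differences of colon against ileum, jejunum and duodenum, averaged over the models, for each of the 29 regions, with bars of 1 SE and regions grouped by gene. Ugt1a1 region 1, Abcg2 regions 1 to 3 and Abcb1a region 1 lie between 0.26 and 0.50, Slc22a22 region 4 lies between -1.02 and -0.82, and the remaining regions lie between -0.53 and 0.28.

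Of the other pumps, Abcb1a, the P-glycoprotein that exports many drugs, had 3 regions. Region 1 (chromosome 5, 8601275 to 8602376), which also overlaps Rundc3b, averaged 11.4 ± 3.19 CPM in colon (SD, n = 12), against 7.87 ± 1.44 in ileum, 8.28 ± 1.96 in jejunum and 8.15 ± 3.48 in duodenum. It was higher in colon than ileum, jejunum and duodenum by log2 differences of 0.50, 0.41 and 0.46, and in 11, 9 and 9 of 12 mice. Its Pearson correlation with Ugt1a1 region 1 was 0.78 over the 48 libraries, with section not taken out, and both regions were highest in colon. Region 2, the densest per kb of the 3, averaged 4.95 ± 2.43 CPM in GermFree colon and 4.25 ± 2.37 in ConvR colon, with section means over both models of 4.03 to 4.91 CPM. Between models, the 3 regions differed by 0.09 to 0.27 in the sums, with 95% intervals that together run from -0.22 to 0.59 (smallest edgeR adjusted p = 0.82).

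Abcc2, the pump for bilirubin glucuronides and other conjugates, had 6 regions, all inside the gene on chromosome 19 and all 17161 bp or more after its start site. Their differences between models in the sums ran from -0.07 to 0.15, with 95% intervals from -0.23 to 0.42 (smallest edgeR adjusted p = 0.84). Between colon and the other sections they ran from -0.29 to 0.20, with no common direction. Region 2 (43814092 to 43814821), the densest, averaged 5.56 ± 2.11 CPM in colon (SD, n = 12), against 5.32 ± 2.45 in ileum, 5.41 ± 1.31 in jejunum and 5.19 ± 2.02 in duodenum. Region 3, which is 5376 bp wide, had a level per kb above only 0.108% of all regions.

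Among the enzymes, Cyp1a1, which oxidises polycyclic aromatic compounds and is the best-known Ahr target, had 1 region (chromosome 9, 57700201 to 57702818), 2588 to 5205 bp after the start site shown above. In the summed sections it averaged 13.3 ± 0.878 CPM in GermFree mice (SD, n = 7) and 13.3 ± 1.58 CPM in ConvR mice (SD, n = 5). Its log2 difference was -0.01 (interval -0.18 to 0.16; edgeR adjusted p = 0.99). In colon it ranged from 9.27 to 16.2 CPM with a median of 11.9 in the GermFree mice and averaged 12.6 ± 2.52 against 15.6 ± 3.06 in the ConvR mice, a log2 difference of -0.35 (interval -0.67 to -0.02; edgeR adjusted p = 0.62). The sections differed little, with means over 12 mice of 12.3 to 14.4 CPM the highest in ileum, and fitted log2 differences of colon against the other sections of 0.01 to 0.22, with the models weighted equally. For Cyp3a11, which oxidises a wide range of drugs and steroids and is a target of Nr1i2, no region lay in the gene or within 5000 bp.

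No region of the receptor genes passed between models, in the sums or in a section. In single sections the fitted log2 differences ran from -0.33 (colon) to 0.35 (ileum) at Ahr. At Nr1i2 they ran from -0.20 (duodenum) to 0.40 (jejunum). Their 95% bounds reached -0.85 and 0.81 at Ahr and -0.73 and 0.92 at Nr1i2, so larger differences could have gone unseen. Ahr had 4 regions, all inside the gene on chromosome 12 (35497979 to 35534989). In the sums they differed by -0.14 to 0.13, with 95% intervals from -0.39 to 0.31 (smallest edgeR adjusted p = 0.85). Region 1, the densest, averaged 5.69 ± 1.94 CPM in colon (SD, n = 12), against 6.01 ± 1.59 in ileum, 5.89 ± 1.62 in jejunum and 5.96 ± 1.20 in duodenum. Region 2 (35503601 to 35505115) was lower in colon, at 7.97 ± 1.81 CPM, than in ileum (10.6 ± 1.93), jejunum (9.54 ± 2.19) and duodenum (10.4 ± 2.38), by log2 differences of -0.43, -0.20 and -0.42, and it is named after its values were seen. Nr1i2 had 5 regions, 4 inside the gene on chromosome 16 and the last within 5000 bp of its end, inside Gsk3b. In the sums they differed by -0.06 to 0.14, with 95% intervals from -0.30 to 0.37 (smallest edgeR adjusted p = 0.81). Region 2, the densest, averaged 3.35 ± 1.42 CPM in colon, against 4.27 ± 1.36 in ileum, 3.68 ± 1.12 in jejunum and 4.20 ± 1.36 in duodenum, on median counts of 6 to 8.5.

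**Figure D5:**
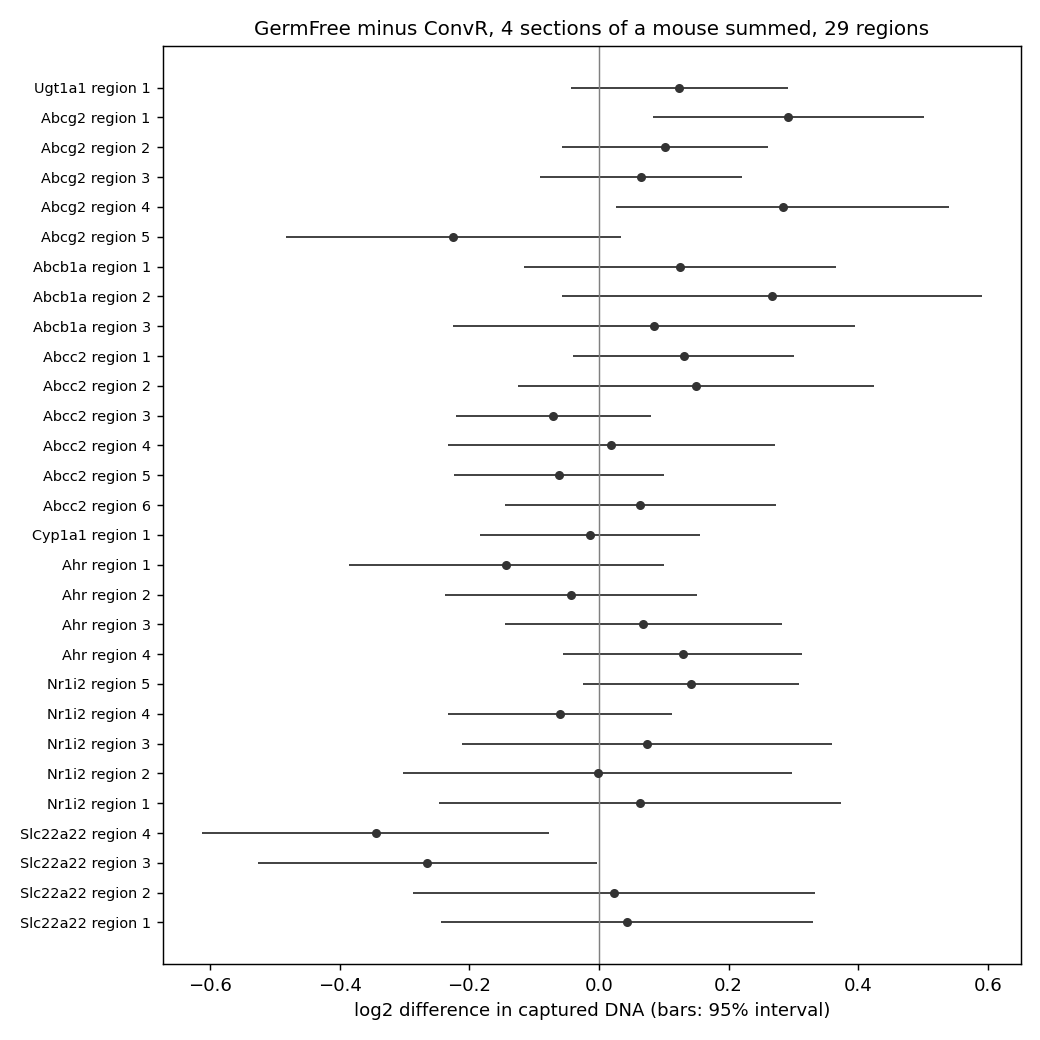
Log2 differences of GermFree against ConvR mice in the summed sections for each of the 29 regions, with 95% intervals and regions grouped by gene. All points lie between -0.34 and 0.29, and no region passed the edgeR threshold.

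Only regions within 5000 bp of a protein-coding gene were ranked by how closely they followed Ugt1a1 region 1 over the 48 libraries. For each set of genes 1 region was kept, and regions far from such genes could not be named. The 3 highest of those ranked lay at repeated gene families. They were at Zfp978 and Zfp988 (Pearson r = 0.95), at C130026I21Rik and Gm38510 (r = 0.94) and at Gm20918 on the Y chromosome (r = 0.94). The median r was -0.03 over 95876 regions, near such a gene or not. For Abcg2 region 2 they were at the zinc finger gene Zfp985 (r = 0.93), at Pramel23 (r = 0.92) and at Sfi1 (r = 0.92). Between Ugt1a1 region 1 and Abcg2 region 2, r was 0.83. Both were highest in colon and were listed with that known, and section was not taken out, so nothing is read from this value. All these values share the same libraries and the same scaling.

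Wider lists of clearance genes, with the 9 genes left out, were counted beside the share of all regions. The lists were also chosen with earlier results known, so nothing about the genes is read from these counts. In the sums of GermFree against ConvR mice, 0 regions passed among 65 at enzymes of oxidation and hydrolysis, 73 at conjugation enzymes, 85 at efflux pumps, 72 at uptake carriers and 98 at regulators, beside 0.475% of all regions, with list medians of -0.03 to 0.01 against -0.001 over all regions. In colon against ileum, where 2.19% of all regions passed, 1 of the 73 conjugation regions was higher, at Ugt1a10 (0.49), and 1 was lower, at Ugdh (-0.72), which makes the sugar donor for glucuronidation. Of the 85 regions at efflux pumps 2 were lower, at Abcc4 (-0.43) and Abcc10 (-0.30), and of the 72 at uptake carriers 1 was lower, at Slc22a3 (-0.76). In colon against duodenum, where 1.21% of all regions passed, 2 of the 65 regions at oxidation and hydrolysis enzymes were higher. They lie at Por (0.62), the electron donor of the cytochrome P450 enzymes, and at Aldh1a1 (0.58), which makes retinoic acid. Of the 98 regions at regulators 1 was lower, at Nr1h4 (-0.76), the bile acid receptor. Medians of the 5 lists in these contrasts lay between -0.04 and 0.04, against -0.004 over all regions against ileum and -0.002 against duodenum. Regions at genes that mark cell types were counted in the same way, with list medians of -0.134 to 0.015 in these contrasts. Of 19 regions at epithelial genes, 1 (Lgals4) was higher in colon against ileum (0.60) and duodenum (0.57), of 21 at immune genes 1 (Itgam) was lower against ileum (-0.69), and of 22 at muscle genes 0 passed, beside the same 2.19% and 1.21% of all regions. The part of cell types in the section differences was not tested.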

How the data were processed

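Trimming used Trim Galore 0.3.7 with cutadapt 1.4.2, and the build was mm10 with MACS2 and featureCounts among the tools, per the submitters' processing notes. For the aligner, the treatment of duplicates and the pooling behind the peaks, nothing is given in the sources used here. The deposited table gives whole-number counts per region in 48 libraries, with no normalisation by the authors. The deposited peak list gives positions and 1 score per region, which served as a filter in 1 alternative. Every region is named after GermFree, and peaks found in ConvR libraries alone may be missing from the list.

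The genes and lists were chosen with earlier results of these data known. Regions were matched to genes with RefSeq on GRCm38.p6. Counts were fitted over the whole table with edgeR 4.0.16 in R 4.3.3 (TMM scaling, the default count filter, quasi-likelihood F-tests, Benjamini-Hochberg adjustment, threshold 0.05). Models were compared on sums over the 4 sections of a mouse and in each section. Sections were compared over 48 libraries in 8 groups of model and section, averaged over the models. Libraries of 1 mouse come from the same animal and so pair the sections. Over 72 such pairs, deviations from the group means correlated with a median of 0.02. Most regions held few counts, which lowers such a correlation, so it does not show that the pairing can be ignored. Calls with the mouse as a block are therefore given beside those of the main fit. DESeq2 1.42.0, other scalings and filters, the overlap without the window, blocks by mouse number and by title code, each model alone and leaving out each mouse were tried. The code that opens a title is shared by mice of both models, except that GermFree mice 5 and 7 share theirs with no ConvR mouse. What the code stands for is not stated in the labels. Leaving out ConvR mice 1 and 3, which stood apart in earlier results of these data, and the covariate for densely captured regions were chosen after seeing the data. The text names each gene's densest region and up to 3 past the threshold and up to 4 genes per list. It also names the 3 regions most like Ugt1a1 and Abcg2 among those near protein-coding genes. The fit was tested on simulated counts. Python 3.11.15, pandas 2.3.3 and Matplotlib 3.10.9 were used for annotation and figures.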

Additional observations from a re-analysis of the deposited data

Results flagged for a closer look

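In 98 groups of 5 or 7 mice, 4 held a mouse that stood far from the others by Dixon's criterion, and chance gives about 1 in 20. GermFree mouse 4 had the lowest Ugt1a1 region 1 of the GermFree ileums, at 137.3 CPM. ConvR mouse 1 had the highest Abcg2 region 1 of the ConvR jejunums, at 17.2 CPM. In the summed sections, ConvR mouse 4 had the highest Abcg2 region 5 of the ConvR mice, at 5.59 CPM, and GermFree mouse 6 had the highest Nr1i2 region 5 of the GermFree mice, at 16.69 CPM.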

How the results depend on the processing

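Depth limits single regions, since the median region held 7 to 23 counts. Between models, the count of called regions of the 9 genes stayed at 0 under every alternative run except in colon without ConvR mouse 4, where it was 1 (0 to 1 over mice left out). DESeq2 called 221, 147, 164 and 244 of all regions in duodenum, jejunum, ileum and colon. The block by mouse number between models, whose 5 pairs had a median correlation of -0.075, called 191 in ileum. Mouse numbers count animals within a model, and the title codes of GermFree and ConvR mouse 5 differ, so a shared number is no known pairing. In the sums, Abcg2 region 3 ran from -0.0197 (without ConvR mouse 3) to 0.1146 over mice left out, and was -0.0168 without ConvR mice 1 and 3.

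With the replicate block by mouse, the sections gave 2336 regions (colon against duodenum), 3447 (colon against ileum), 324 (colon against jejunum, 3 of the 9 genes), 1 (ileum against jejunum) and 15 (jejunum against duodenum), and the variation by section 13, with 0 of the 9 genes. DESeq2 gave 920 for colon against ileum, with 2 regions of the 9 genes there and against duodenum, and 0 for ileum against duodenum. GermFree mice alone gave 48, 1174 and 1401 for colon against duodenum, jejunum and ileum, with 0 and 3 regions of the 9 genes in the first 2. ConvR mice alone gave 0 for colon against duodenum and ileum, 0 of the 9 genes, and Abcg2 region 3 at -0.0262 against jejunum. Either model alone gave 0 for ileum against duodenum. Without ConvR mice 1 and 3, colon against jejunum gave 84 regions with 1 of the 9 genes, and ileum against duodenum 0. The share of densely captured regions as a covariate gave 30 and 14 for colon against duodenum and ileum, 0 of the 9 genes, and Abcg2 region 3 at -0.0026 against duodenum. Leaving out 1 mouse at a time gave 17 to 2028 regions against duodenum (lowest without ConvR mouse 5, highest without ConvR mouse 3; 0 to 5 of the 9 genes), 0 to 376 against jejunum (highest without ConvR mouse 3; 0 to 2), 493 to 3223 against ileum (lowest without GermFree mouse 4, highest without ConvR mouse 3; 1 to 5), and 0 to 2 for ileum against duodenum. The causes of these changes were not tested.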
